A study of Homo sapiens with 2 samples.

Results

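The PRDM16 interval of human chromosome 1 was examined in a map of TET1 on the chromatin of cardiac progenitors. Its members were the V5 ChIP peaks that touched, by 1 bp or more, the gene PRDM16 (hg19, chromosome 1 from 2985 to 3356 kb, transcribed towards higher positions) or the 20 kb on either side. There were 81 such peaks of 46208 in the whole list. The cells came from H1, a human embryonic stem cell line in long use, here with a V5 epitope tag on the endogenous TET1 protein. They were differentiated in a monolayer with CHIR99021, which activates WNT signalling, at 6 µM up to day 2 and with IWP2, which blocks it, at 5 µM from day 3 until day 5. Chromatin was taken on day 7 as 1 V5 ChIP library and 1 input library from the same kind of cells, and the input was the comparison in the peak call. Both libraries carry a wild-type genotype entry in the labels, although the series' design text names the tagged line, and whether the line is a single clone is not stated there. A V5 ChIP of untagged cells was not analysed here, so antibody signal from other sources cannot be told apart from TET1. No expression was measured, so the identity of the cells was not checked, and read depth is unknown.

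PRDM16 encodes a zinc finger regulator of transcription with a PR domain, which is related to the SET domain of histone methyltransferases. It is best known for its role in brown fat identity and blood stem cells. In the heart it is needed for the compact layer of the ventricular wall, and its loss is linked to left ventricular noncompaction and dilated cardiomyopathy. TET1 oxidises 5-methylcytosine, the first step in active removal of DNA methylation, and its CXXC domain binds DNA rich in CpG.

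The gene was chosen by the number of its peaks in this same list. Number, width, spacing and score all come from 1 peak call, so the values below are descriptions without a test. Intervals are 95% (exact Poisson for densities, Clopper-Pearson for shares and ratios, order statistics for medians). They cover counting error only and treat neighbouring peaks as independent.

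Peaks ran through the whole length of PRDM16. The gene alone, 371 kb, was touched by 77 peaks, the left margin added 1 and the right margin 3. Over the 411 kb of the interval the density was 19.7 peaks per 100 kb (15.7 to 24.5), and peaks covered 174 kb of it, or 42.3%. The 500 kb to the left (2465 to 2965 kb) held 27 further peaks, or 5.40 per 100 kb (3.56 to 7.86), and 13.2% of it was covered. The 500 kb to the right (3376 to 3876 kb) held 56, or 11.2 per 100 kb (8.46 to 14.5), and 28.3% was covered. The interval was thus 3.65-fold denser than the left flank (2.34 to 5.87), 1.76-fold denser than the right flank (1.24 to 2.52) and 2.37-fold denser than both together (1.73 to 3.26). With peaks up to 5 kb apart merged, the last of these ratios was 1.22 (0.608 to 2.33). The flanks also differed from each other, the right being 2.07-fold denser than the left (1.29 to 3.42). In the gene table the next protein-coding genes on the left are ACTRT2, TTC34 and MMEL1, and those on the right are ARHGEF16, MEGF6 and TPRG1L. The table also lists genes inside PRDM16, among them MIR4251 and the protein-coding LOC124903828, and the protein-coding LOC124903827 crosses its bounds. Peaks were not assigned among these genes.

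**Figure D1:**
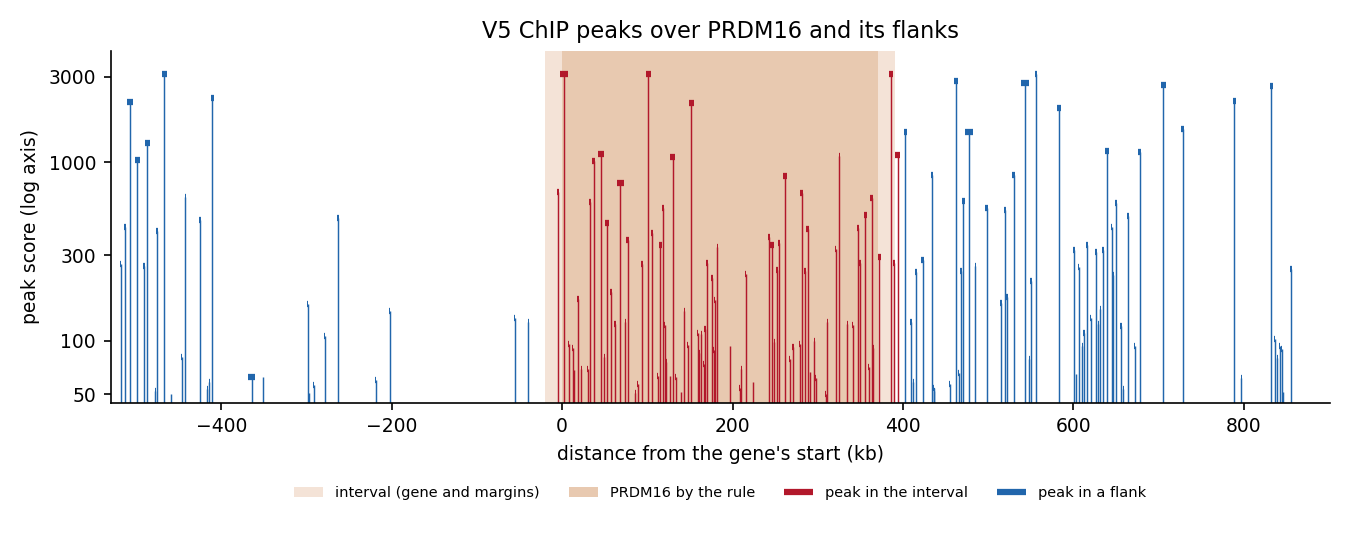
Each peak is drawn at its score (log axis) against its distance from the start of PRDM16 in kb, with the gene and its margins shaded. The 81 peaks of the interval (red) follow one another without a gap longer than 17.2 kb, whereas the left flank (blue) has a peak-free stretch of 145 kb.

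The peaks of the interval stood close together. The median gap between neighbouring peaks was 1529 bp (991 to 2593, 80 gaps), against 5592 bp (2664 to 13053) in the left flank and 2006 bp (1375 to 3971) in the right flank. The intervals of the gene and the right flank overlapped. Over the whole list the median gap was 13153 bp. Only 4 gaps of the interval exceeded 10 kb, which is 5.0%, against 38.5% of left-flank gaps, 16.4% of right-flank gaps and 55.1% in the whole list. The longest gap in the interval was 17.2 kb, in the right flank 57.97 kb and in the left flank 145 kb. At the other extreme, 19 gaps (23.8%) were shorter than 500 bp, and 7 of these were under 100 bp, down to 6 bp. Gaps under 500 bp made up 7.69% in the left flank, 18.2% in the right flank, 14.8% in both flanks together and 7.47% in the whole list.

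Another peak midpoint lay within 10 kb for 80 of the 81 peaks, or 98.8% (93.3% to 99.97%), where the whole list has 56.7%. In the flanks it was 71 of 83, or 85.5% (76.1% to 92.3%). The gaps and this share depend on the number of peaks, by which the gene was chosen.

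The typical peak had the width usual in the list. The median width was 1517 bp (1298 to 1918), with quartiles of 1017 and 2581 bp and a range from 631 to 9908 bp. The whole list has a median of 1531 bp. The left flank stood at 1573 bp (1022 to 2410) and the right flank at 2004 bp (1592 to 2254). Peaks of 5 kb or more numbered 8 of 81, or 9.88% (4.36% to 18.5%), against 3.20% of the list, and the flanks held 8 of 83.

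**Figure D2:**
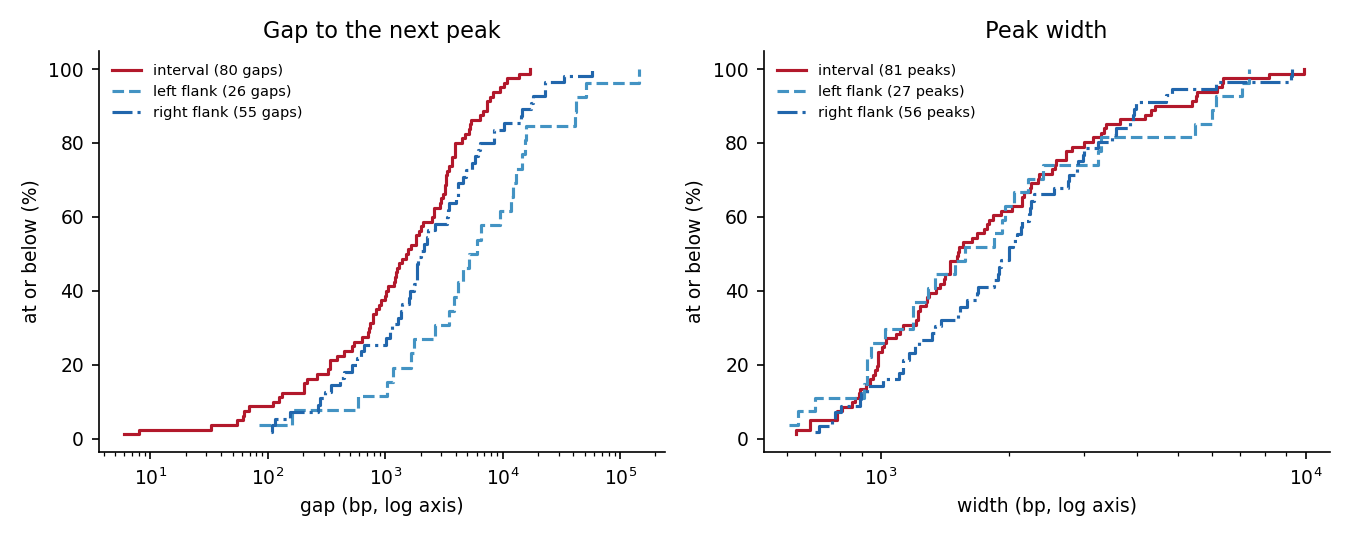
Cumulative shares of gaps between neighbouring peaks (left) and of peak widths (right), both on log axes in bp, for the interval and each flank. The curve of gaps for the interval lies to the left of both flanks, with a median of 1529 bp against 2006 and 5592 bp, while the width curves cross.

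The score is the value that the authors deposited with each peak. Its unit is not stated, and it is used here to rank peaks within the list. The most common score class in the interval was the lowest. Scores below 100 were carried by 30 of 81 peaks, or 37.0% (26.6% to 48.5%), beside 32.9% of the list. Scores of 3100 or more, where most of the strongest peaks of the list are tied, were carried by 3 peaks, or 3.70% (0.770% to 10.4%), beside 4.69% of the list. The median score was 146 (109 to 271), against 147 (62.6 to 473.6) in the left flank, 249 (133 to 343) in the right flank and 172 in the list. Width and score went together within the interval (Spearman's rank correlation 0.903 over 81 peaks of 1 library, from the same peak call), about as in the list (0.861).

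Density was also taken by score class. Below a score of 1000 the interval had 17.5 peaks per 100 kb (13.7 to 22.1), the left flank 4.40 (2.76 to 6.66) and the right flank 8.80 (6.39 to 11.8). Against both flanks together the ratio was 2.92 (1.66 to 5.18) for scores from 50 to 100, 2.33 (1.26 to 4.31) from 100 to 300 and 2.72 (1.34 to 5.57) from 300 to 1000. At 1000 or more the interval had 9 peaks, or 2.19 per 100 kb (1.00 to 4.16), a value between the left flank's 5 peaks, or 1.0 (0.325 to 2.33), and the right flank's 12, or 2.40 (1.24 to 4.19). Both flanks together gave a ratio of 1.29 (0.506 to 3.06) there. The intervals of the ratios overlap between score classes. Of the 30 peaks scoring below 100, 8 lay within 1 kb of a peak scoring 300 or more, or 26.7% (12.3% to 45.9%). The flanks had 4 of 25 and the whole list 1216 of 15208.

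**Figure D3:**
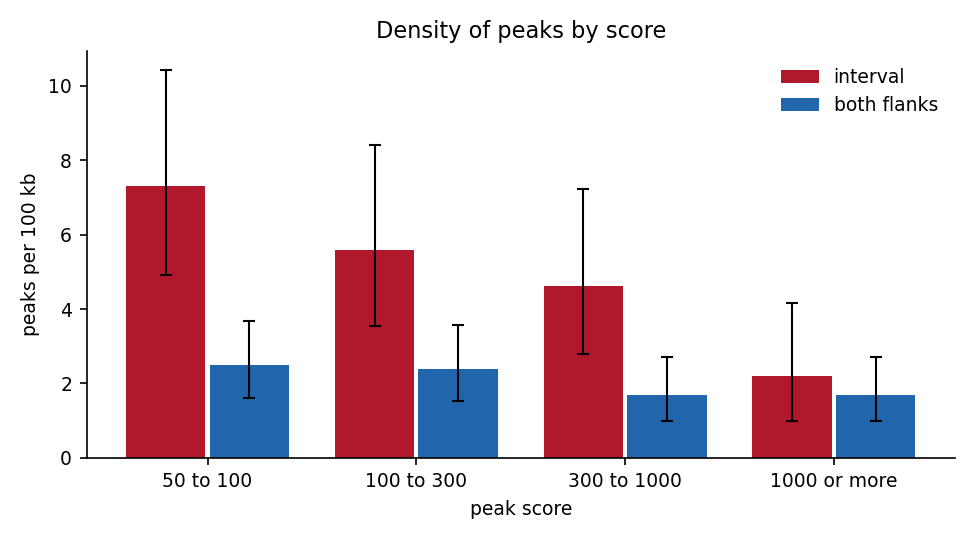
Peaks per 100 kb in the interval (red) and in both flanks (blue) by class of peak score, with exact 95% Poisson intervals as error bars. The bars differ most from 50 to 100 (7.30 against 2.50) and least at 1000 or more (2.19 against 1.70).

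The start of the gene lay under its widest peak. This peak ran from 2982016 to 2991923, was 9908 bp wide and scored 3100. It began 2.99 kb before the 2985 kb taken as the gene's start and ended 6.92 kb inside. The first peak of the interval, from 2978882 to 2981135 (2254 bp, score 682), was 880 bp further upstream. On the outer side of it the list was empty for a long way: the nearest peaks beyond the interval were at 2944618 to 2946110 (score 128) and 2928723 to 2929911 (score 135), which end 38.9 and 55.1 kb before the gene, and the next one ended 202 kb before it.

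The other end was different. The last peak that touched the gene, from 3355872 to 3359022 (3151 bp, score 293), crossed the 3356 kb taken as its end. A peak of 4332 bp at a score of 3100 followed in the right margin, from 3368565 to 3372896, 12.6 kb past the gene's end. The interval closed with a peak from 3373342 to 3375579 (score 271) and, 6 bp on, one from 3375586 to 3381752 (6167 bp, score 1090), of which 415 bases lie inside the interval. The first peak outside, from 3385982 to 3389842, scored 1476 and began 9.98 kb past that edge.

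In the gene table the gene next to PRDM16 on its start side is PRDM16-DT, a long noncoding RNA gene transcribed in the opposite direction, and the next gene on its end side is ARHGEF16. Their start windows run from 250 bases before to 50 after the annotated start. They are shown because a peak scoring 3100 lay over the start of PRDM16 and another began 12.6 kb past its end. The window of ACTRT2, the next protein-coding gene on the start side, is shown beside them. The start window of PRDM16 itself was not available. The sequences are RefSeq's on GRCh38.p14, and capitals mark each CG. The window of PRDM16-DT is chr1:3067676-3067975 on the minus strand, that of ARHGEF16 is chr1:3454415-3454714 on the plus strand and that of ACTRT2 is chr1:3021217-3021516 on the plus strand.
PRDM16-DT: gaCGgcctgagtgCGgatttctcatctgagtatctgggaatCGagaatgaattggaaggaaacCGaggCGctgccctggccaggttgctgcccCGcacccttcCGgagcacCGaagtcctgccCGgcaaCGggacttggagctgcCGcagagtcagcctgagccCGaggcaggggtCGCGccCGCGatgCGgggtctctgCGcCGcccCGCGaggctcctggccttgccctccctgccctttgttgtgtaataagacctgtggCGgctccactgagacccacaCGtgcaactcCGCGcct
ARHGEF16: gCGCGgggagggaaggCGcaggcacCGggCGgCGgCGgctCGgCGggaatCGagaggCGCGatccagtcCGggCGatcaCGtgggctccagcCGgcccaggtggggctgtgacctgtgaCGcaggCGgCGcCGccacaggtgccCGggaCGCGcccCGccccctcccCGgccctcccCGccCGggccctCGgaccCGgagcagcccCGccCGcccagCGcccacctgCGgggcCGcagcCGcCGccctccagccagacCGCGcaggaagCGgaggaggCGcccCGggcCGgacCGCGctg
ACTRT2: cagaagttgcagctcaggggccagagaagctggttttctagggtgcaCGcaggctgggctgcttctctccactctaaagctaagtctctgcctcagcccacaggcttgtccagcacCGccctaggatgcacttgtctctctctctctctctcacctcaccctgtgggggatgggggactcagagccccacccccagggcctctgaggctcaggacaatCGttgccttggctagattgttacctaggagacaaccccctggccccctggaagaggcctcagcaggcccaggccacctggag
The motif CG, which reads the same on both strands, occurred 25 times in the window of PRDM16-DT, 44 times in that of ARHGEF16 and 3 times in that of ACTRT2. The median over 35116 such windows was 14. At least as many were held by 32.0% of windows for PRDM16-DT, 4.19% for ARHGEF16 and 81.8% for ACTRT2. The peaks are on hg19, so whether any of them covers these windows was not tested. A link between CG number and peaks was not tested either.

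Every part of the gene held peaks. With peaks assigned by midpoint, 76 fell in the gene, and its 10 equal parts of 37.1 kb held 8, 8, 6, 11, 11, 4, 6, 9, 5 and 8 from start to end. None was empty, and the median was 8. Of the 28 parts of the same length on both sides of the gene, 6 were empty, the median was 2, and 2 reached 8 or more. Those 2 adjoin on the right, from 594 to 668 kb past the gene's start, and hold 9 peaks each, so the gene's own density is also met in its right flank.

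**Figure D4:**
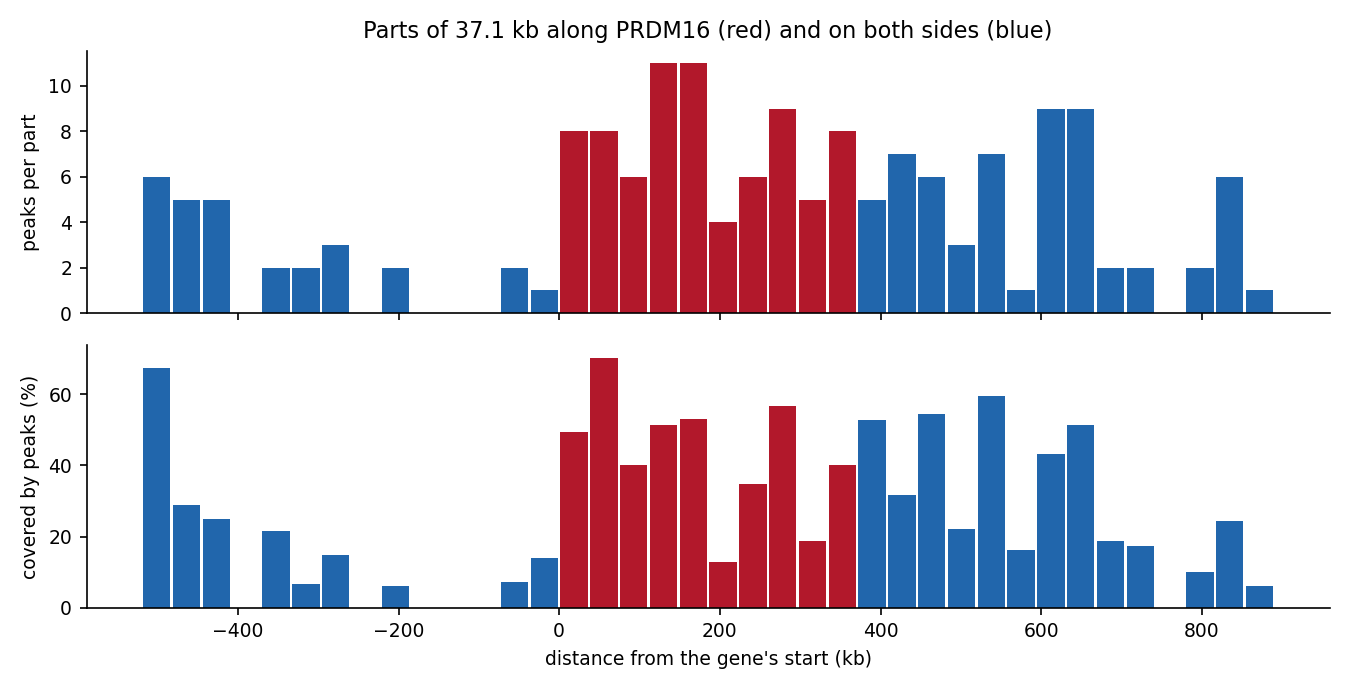
Peaks (upper) and the share of bases covered by peaks in percent (lower) in consecutive parts of 37.1 kb, against the distance from the gene's start in kb; red bars are the gene. The 10 parts of the gene hold 4 to 11 peaks each, and the parts before the gene hold 0 to 6.

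More of the first 50% of the gene than of the last 50% was under peaks. The first 50% held 44 peaks, or 23.7 per 100 kb (17.2 to 31.8), and 52.8% of its bases were covered. The last 50% held 32, or 17.3 per 100 kb (11.8 to 24.4), and 32.7% was covered. The intervals of the densities overlap. Median widths were 1416 bp (1219 to 1775) and 1484 bp (1106 to 2152), and median scores were 126 (94.8 to 268.8) and 125 (91.9 to 345.2), so both differed by less than their counting intervals. Peaks of 5 kb or more were few: 6 had their midpoint in the first 50% and 1 in the last, a difference that was not tested.

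Between these wide peaks lay narrower ones. After the peak at the start, a peak of 6371 bp ran from 3027235 to 3033605 (score 1111) and one of 8217 bp, the second widest, from 3049019 to 3057235 (score 762). Both belong to the second part of the gene, where 70.2% of the bases were covered, the highest value of all parts. The peak from 3083555 to 3089057 (5503 bp) was the only one at 3100 that lay wholly inside the gene, 98.6 to 104 kb from its start. The next wide peaks ran from 3112070 to 3117630 (5561 bp, score 1068) and from 3133605 to 3139946 (6342 bp). The latter's score of 2130 was the highest below 3100. In the last 50% the single wide peak ran from 3243745 to 3249139 (5395 bp, score 831), and the highest score there, 1081, was that of a peak of 2152 bp from 3309385 to 3311536.

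The fullest stretch was formed by the fourth part and the fifth, 111 to 186 kb from the start, with 11 peaks each. Scores below 100 were carried by 6 peaks of the former and 3 of the latter. In the latter part, 11 peaks had a median width of 1379 bp and a median score of 116, and 10 of them followed the wide peak at its beginning with scores between 74.0 and 336. Joined across gaps of up to 5 kb, 14 peaks formed a string from 3124119 to 3167633 (43.5 kb), of which 51.6% was under peaks. The longest such string in the interval had 11 peaks and ran from 3014164 to 3063064 (48.9 kb), with 70.1% under peaks. The flanks held a longer one by this measure, 66.0 kb with 18 peaks. Joined across up to 10 kb, 45 of the 81 peaks became a single string of 189 kb from 2978882 to 3167633, which reaches from upstream of the gene to its middle. Another string, 128 kb with 24 peaks from 3294039 to 3422330, ran past the interval's right edge into the right flank. Strings that touch the interval were not counted for the flanks. Of those left, the longest at that distance was 79.7 kb with 20 peaks.

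Just beyond the string of 189 kb the peaks became sparse. The longest gap, 17.2 kb, lay between a peak at 3208567 to 3209354 (788 bp, score 58.6) and one at 3226583 to 3228414 (1832 bp, score 380), 224 to 242 kb from the gene's start. The second longest, 13.8 kb, began where the string ended. The sixth part of the gene, which takes in most of that gap, held 4 peaks, none above a score of 236, and 12.8% of it was covered. Past the 17.2 kb gap the peaks were dense again. Joined across up to 10 kb, 15 peaks formed a string from 3226583 to 3283083, with 61.0% under peaks. The eighth part of the gene held 9 peaks, and 56.8% of it was covered. The weakest peaks of the interval were scattered: they stood at 3294039 to 3294718 (score 50.4), 3070488 to 3071118 (score 51.2, at 631 bp the narrowest width in the interval) and 3124119 to 3124928 (score 51.8), just above the list's lowest score of 50.

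Set against tiles of its own length on the 22 autosomes, the interval was near the top in number and in the middle in width. Of 5474 such tiles that held a peak, 2 had 81 or more peaks and 9 were covered to 42.3% or more. The median tile had 4 peaks and 1.78% coverage. The median over tiles of their median width was 1518 bp. The gene lies near the end of the short arm, and tiles within 5 Mb of chromosome ends had a median of 15 peaks. The 2 fuller tiles and the 9 with higher coverage were all among these 445 terminal tiles. On chromosome 1 no other tile reached 81 peaks, and the fullest had 59.

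**Figure D5:**
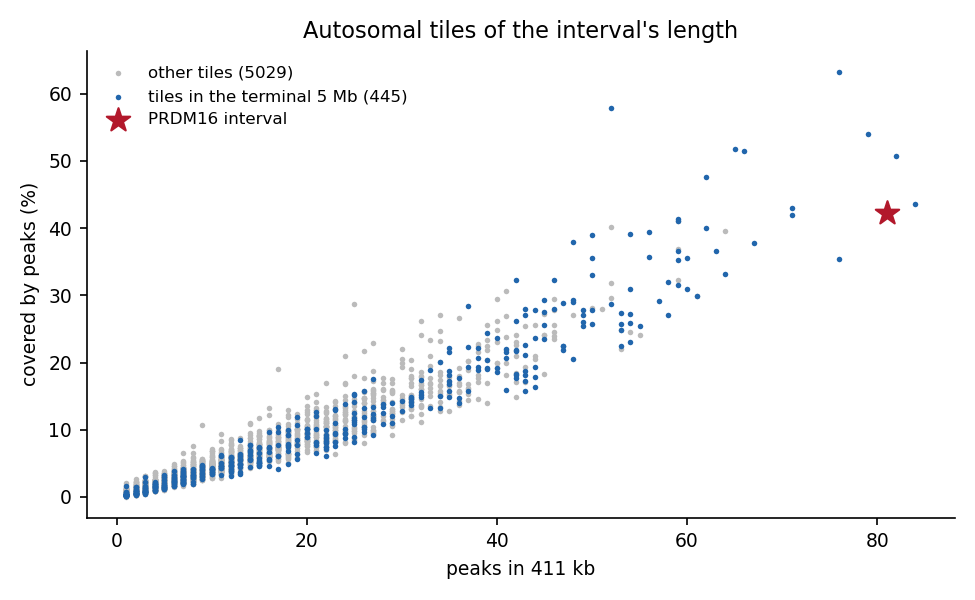
Number of peaks and covered share in percent for each autosomal tile of 411 kb, with terminal tiles in blue and the PRDM16 interval as a red star. The interval lies at 81 peaks and 42.3%, beyond all but 2 tiles in number.

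The tiles were laid on a fixed grid, whereas the interval was centred on the gene, which favours it. Windows of the same length moved in steps of 10 kb reached 81 peaks in 4 places on the autosomes: around PRDM16 (up to 84), at 2 places on chromosome 16 (up to 84 between 470001 and 961000, and up to 96 between 85060001 and 85771000) and at 1 on chromosome 19 (up to 88, between 410001 and 1191000). On chromosome 1, windows that did not overlap the interval held at most 62. Among 17 tiles whose peak number was within 25% of the interval's, the median tile had 42.0% coverage, a median width of 1578 bp, a median gap of 1737 bp and 33.3% of peaks below a score of 100. The interval's 42.3%, 1517 bp, 1529 bp and 37.0% lay inside the range of those tiles. The 3 tiles most like it by percentile rank in number, width and gap were all terminal. They lay on chromosome 7 from 2466001 to 2877000 (49 peaks) and on chromosome 17 from 78912001 to 79323000 (71 peaks). The other lay on chromosome 5 from 411001 to 822000 (50 peaks). The 95th percentile of all tiles was 31 peaks, so 49 and 50 peaks rank close to the interval's 81. The tiles with 49 and 50 peaks are outside the 25% range used above.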

How the data were processed

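The data were 1 V5 ChIP library and 1 input library. Reads were aligned with BWA 0.7.17 on hg19, per the submitters' processing notes, and peaks were called with MACS, per the peak names in the deposited list, which has 5 columns and no header. For MACS, version and settings are not stated in the labels. The score that the authors deposited for each peak starts at 50, its unit is not stated, and read counts were not analysed here.

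The gene's bounds are those of the selection rule, to the nearest kb. No hg19 annotation was used, so exons and introns are not described. Genes were named from their order in RefSeq's table for GRCh38.p14. A peak that touched the interval was not counted again in a flank. Gaps run from the end of a peak to the start of the next, and covered shares count all bases under peaks. Tiles near the end lay with their middle within 5 Mb of a chromosome's last peak, or of its start where the first peak lay within 1 Mb. Similar tiles were ranked by peak number, median width and median gap. Named peaks were the 5 widest, those at 3100 or more, the 3 weakest, the first and last, those beside the longest gap and those nearest the edges; others are named for a stretch they belong to and were chosen after their values were seen. The gene and these choices were made with earlier results of these data known. The software was Python 3.11.15 with numpy 2.4.6, scipy 1.17.1, pandas 2.3.3 and matplotlib 3.10.9. Alternatives covered score thresholds, merging, margins, overlap and flanks. Since neither group has a second library, no spread between replicates and no p-value can be given.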

Additional observations from a re-analysis of the deposited data

How the results depend on the processing

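Alternative settings gave 35 recomputed values of the 5 results, and a setting that served several results is counted once for each. Of these values, 19 stayed within 1.5 times the main value (peak number, coverage) or within its counting interval (density ratio, medians). The other 16 moved, and no density ratio fell below 1. Leaving out the margins and counting by midpoint moved none of the 5. The density ratio over the flanks depends on which flank is used, at 3.65 for the left alone and 1.76 for the right, and it was 1.77 once peak-free stretches over 50 kb were taken out of the lengths; whether these lie in unsequenced DNA was not examined. Merging peaks up to 5 kb apart left 15 stretches and a ratio of 1.22 (0.608 to 2.33); merging up to 1 kb left 50 stretches and 1.84 (1.25 to 2.70). Scores of 100 or more left 51 peaks, and of 300 or more 28. The median width was 2254 bp and 3328 bp at these thresholds, and 2684 bp and 21253 bp after merging up to 1 and 5 kb. The median gap was 3083 bp and 5124 bp at the thresholds, and 3303 bp and 7598 bp after merging. Coverage was 25.3% at scores of 300 or more and 67.0% after merging up to 5 kb. These moves in number, width and gap follow from the construction of thresholds and merging.  Unknown depth limits the count of weak peaks.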
